A study of Arabidopsis thaliana with 4 samples.

Results

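The CBF and COR probe sets measure the cold-response pathway of Arabidopsis thaliana, compared here between php mutants and wild-type plants. The 9 members were chosen by their probe set identifiers on the Affymetrix ATH1 array, out of 22810 probe sets on the array and 15922 that were tested. They were chosen with earlier results of these data known, so counts of members set against all probe sets describe and do not test. Of the members, 3 read transcription factor genes, CBF1 (254074_at, AT4G25490), CBF2 (254075_at, AT4G25470) and CBF3 (254066_at, AT4G25480). The other 6 read cold-regulated target genes, COR15A (263497_at), COR15B (263495_at), COR47 (259570_at), LTI30 (252102_at), RD29A (248337_at, AT5G52310) and KIN1 (246481_s_at, AT5G15960). The platform annotation used here lists 5 of these probe sets. It gives 4 of them 1 gene each, which is the one named, and it gives 246481_s_at both KIN2 and KIN1, so that probe set is called KIN1/KIN2 and its value is not divided between them. The other 4 probe sets, CBF1, CBF2, CBF3 and RD29A, carry the names given in the rule that chose them.

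The samples were the aerial parts of soil-grown plants aged 14 days, from php mutants (2 arrays) and from wild-type plants (2 arrays), with no cold treatment named in the labels. The labels give neither the allele nor the accession of the plants. Each array held RNA made from 3 independently derived samples, and the arrays of each genotype are numbered I and II. The labels do not say what the arrays with the same number share, so the number is used as a label and not as a known batch. PHP, the plant homologue of the human protein parafibromin, belongs to the PAF1 complex, which accompanies RNA polymerase II through transcribed genes. No probe set used here is named for PHP, and the genotype labels therefore rest on no measurement of the mutated gene.

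In the cold, Arabidopsis plants rapidly switch on the CBF genes, also called DREB1 genes, through activators such as the bHLH protein ICE1 and the calmodulin-binding CAMTA proteins. The CBF proteins bind the C-repeat or dehydration-responsive element in the promoters of COR genes. The COR proteins, many of them hydrophilic and able to protect membranes or other proteins, add to freezing tolerance. CBF transcripts are short-lived, follow the circadian clock, and are also known to respond to touch and handling, whereas COR transcripts accumulate more slowly. Several COR genes, RD29A among them, also respond to drought and abscisic acid through a separate promoter element.

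Every member has a relative beside it in the genome, in the RefSeq gene order of assembly TAIR10.1. CBF1, CBF3 and CBF2 stand in a row on chromosome 4, with only 2 noncoding gene models between CBF1 and CBF3 and 1 between CBF3 and CBF2. COR15A and COR15B are neighbours on chromosome 2 and KIN1 and KIN2 on chromosome 5, with 0 gene models between each pair. COR47 stands beside the dehydrin gene ERD10 on chromosome 1, LTI30 beside the dehydrin gene XERO1 on chromosome 3, and RD29A beside LTI65, also known as RD29B, on chromosome 5. Hybridisation shared between such relatives was not tested.

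All 9 members had a higher mean in php than in wild-type, and 0 of the 9 passed the test over all probe sets. The differences ranged from 0.23 to 2.21 on the log2 scale, on which 1 is a 2-fold difference, with a median of 0.98 against 0.01 for all probe sets tested. The 3 smallest, COR15B, LTI30 and COR15A, were at 0.23 to 0.26. By comparison, the 18 control probe sets of the hybridisation spike-ins were 0.22 to 0.51 higher in php. In whole shoots, more cells that express a gene and more RNA per cell cannot be told apart. RD29A, the KIN1/KIN2 probe set and COR47 were set apart by genotype with little spread between replicates. CBF1 and LTI30 differed more between replicate numbers than between genotypes, as CBF2 and COR15A did by a small margin. Calls were made at an adjusted p under 0.05, which 0.0314% of all probe sets passed. At an unadjusted p under 0.05 and higher in php there were 4 members of 9, namely CBF3, COR47, RD29A and KIN1/KIN2, against 11.3% of all probe sets. Both php arrays lay above both wild-type arrays in 5 of 9 members, against 33.2% of all probe sets.

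**Figure D1:**
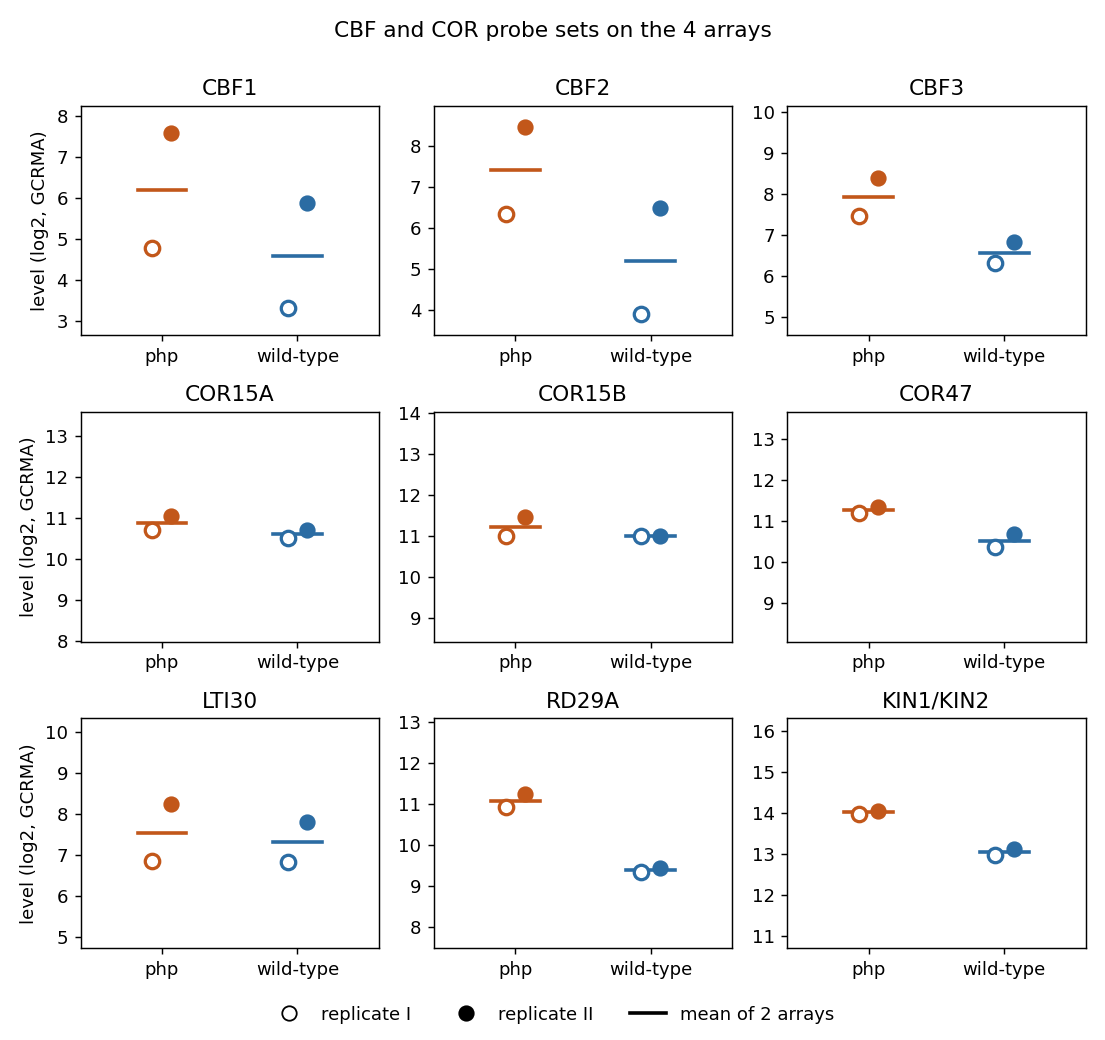
Level of each of the 9 probe sets (vertical axes, log2 after GCRMA, all panels spanning the same range) in php and in wild-type (horizontal axes), with open circles for replicate I, filled circles for replicate II and a bar at the mean of 2 arrays. The php and wild-type points are apart in CBF3, COR47, RD29A and KIN1/KIN2 and narrowly in COR15B, and in CBF1, CBF2 and LTI30 the filled circles lie well above the open ones in both genotypes.

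Among the activators, CBF2 had the largest mean difference of the 9 members. It was at 6.35 and 8.48 on php arrays I and II, against 3.91 and 6.49 on wild-type arrays I and II. The genotypes overlapped, because the wild-type II array was above the php I array, and within each replicate number php was the higher. The mean was 7.41 ± 1.504 in php and 5.20 ± 1.83 in wild-type (log2, SD, n = 2 arrays each), a log2 difference of 2.21 or 4.64-fold. Its standard error was 1.19 and its 95% confidence interval ran from -1.09 to 5.52 (limma adjusted p = 0.331). This fit had no replicate term, so its error takes in the gap between replicate numbers. Within the numbers php was higher by 2.44 (I) and 1.99 (II), and with a replicate block the limma adjusted p was 0.137, which did not pass either.

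CBF1 showed the same order of arrays. It was at 4.78 and 7.60 on php arrays I and II, against 3.31 and 5.89 on wild-type arrays I and II. The wild-type II array again lay above php I, and the wild-type I value was not far above 2.64, the mean level below which probe sets were left out as dim. The log2 difference was 1.59 (3.01-fold, SE 1.36, limma adjusted p = 0.507). With 1 array left out, the CBF1 difference was 0.18 (php II left out), 0.30 (wild-type I), 2.88 (wild-type II) or 3.0 (php I). The CBF2 difference was 1.15, 0.92, 3.51 and 3.28 in the same settings. For every member, fits with 1 array left out hold the replicate numbers unequally in the genotypes, so their values take in the gap between numbers. They therefore cannot show whether a single array set the genotype difference. Within the numbers php was higher by 1.47 (I) and 1.71 (II) for CBF1, and by 2.44 and 1.99 for CBF2.

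CBF3, also called DREB1A, was the activator whose genotypes did not overlap. It was at 7.47 and 8.40 on php arrays I and II, against 6.31 and 6.83 on wild-type arrays I and II. Every php value was above every wild-type value. The mean was 7.93 ± 0.66 in php and 6.57 ± 0.37 in wild-type, a log2 difference of 1.36 or 2.57-fold, with an interval of 0.29 to 2.43 (SE 0.39, limma unadjusted p = 0.024, adjusted p = 0.161). It was at 0.90 without php replicate II and at 1.83 without php replicate I.

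Of the targets, RD29A, a strongly hydrophilic protein gene with elements for both the CBF and the abscisic acid pathway, had the largest difference. It was at 10.93 and 11.25 on php arrays I and II, against 9.34 and 9.44 on wild-type arrays I and II. The php arrays were both far above the wild-type arrays, and the arrays of each genotype were close to each other. The mean was 11.09 ± 0.23 in php and 9.39 ± 0.07 in wild-type, a log2 difference of 1.70 or 3.25-fold, with an interval of 1.35 to 2.05 (SE 0.13). It did not pass over all probe sets (limma unadjusted p = 0.00018, adjusted p = 0.084), and with each array left out in turn the difference was 1.54 to 1.86.

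The KIN1/KIN2 probe set reads a pair of genes for small hydrophilic proteins. It was at 13.98 and 14.04 on php arrays I and II, against 12.96 and 13.11 on wild-type arrays I and II. Here too the genotypes were separate, and the gap between them was much wider than the gap within either. The mean was 14.01 ± 0.04 in php and 13.03 ± 0.11 in wild-type, a log2 difference of 0.98 or 1.97-fold, with an interval of 0.79 to 1.17 (SE 0.07, limma unadjusted p = 0.00014, adjusted p = 0.083). RD29A and KIN1/KIN2 passed when the lowest 50% of probe sets were left out, where fewer were tested (limma adjusted p = 0.039 each). Their adjusted p ranged from 0.039 to 0.408 over the alternatives run.

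COR47, an acidic dehydrin of the cytosol, was at 11.20 and 11.35 on php arrays I and II, against 10.37 and 10.68 on wild-type arrays I and II. The genotypes did not overlap. The log2 difference was 0.75 or 1.68-fold, with an interval of 0.39 to 1.11 (limma adjusted p = 0.106), and it was 0.59 to 0.91 with each array left out in turn.

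The COR15 genes, which encode small proteins of the chloroplast stroma that protect membranes during freezing, differed little. COR15A was at 10.69 and 11.05 on php arrays I and II, against 10.51 and 10.72 on wild-type arrays I and II, so that php I lay between the wild-type arrays. COR15B was at 11.001 and 11.45 on php arrays I and II, against 10.998 and 10.98 on wild-type arrays I and II. Only php II stood apart for COR15B, with the other arrays within a narrow range. The log2 differences were 0.26 for COR15A (interval -0.16 to 0.68, limma adjusted p = 0.360) and 0.23 for COR15B (interval -0.22 to 0.69, limma adjusted p = 0.428). Without php replicate II they were 0.08 and 0.01, in a fit that holds the replicate numbers unequally in the genotypes. Within the numbers php was higher by 0.19 (I) and 0.34 (II) for COR15A, and by 0.00 and 0.46 for COR15B.

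LTI30, a dehydrin also called XERO2 that associates with membranes, had a small mean difference between genotypes. It was at 6.86 and 8.25 on php arrays I and II, against 6.83 and 7.80 on wild-type arrays I and II. The replicate I arrays of both genotypes were low and nearly equal, and the replicate II arrays of both were high. The log2 difference was 0.24 (interval -1.44 to 1.93, limma adjusted p = 0.827), and with php replicate II left out it was -0.45, and with wild-type replicate I left out -0.24. LTI30 was the 1 member whose difference turned negative when an array was left out. Those fits hold the replicate numbers unequally in the genotypes, and within the numbers php was higher by 0.04 (I) and 0.45 (II).

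**Figure D2:**
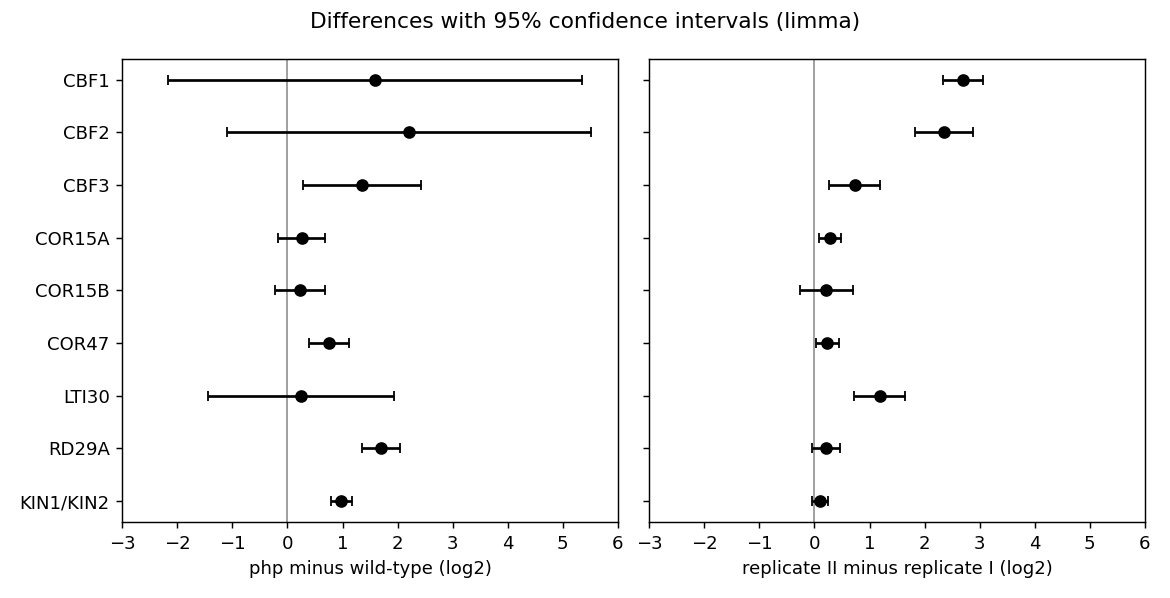
Log2 difference of each member (dots) with its 95% confidence interval from limma (bars), for php minus wild-type on the left and replicate II minus replicate I on the right. For CBF1, CBF2 and LTI30 the genotype interval is wide and includes 0 while the replicate interval lies above 0, and for RD29A and KIN1/KIN2 the genotype interval lies above 0 while the replicate interval includes it. The genotype fit has no replicate term and the replicate fit has a genotype term, so the widths on the left and right are not alike in kind. The genotype intervals take in the gap between replicate numbers.

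Set side by side within replicate numbers, the genotype difference was positive in both numbers for 9 of 9 members, against 39.8% of all probe sets. The 3 activators were 1.16 to 2.44 higher in php on the replicate I arrays and 1.57 to 1.99 higher on the replicate II arrays, on the log2 scale. CBF2 differed by 2.44 in number I and 1.99 in number II, CBF1 by 1.47 and 1.71, and CBF3 by 1.16 and 1.57. Between the numbers the gap of genotypes changed by -0.46 to 0.41 over the 3 CBF genes, and the levels of each were lower on the replicate I array of both genotypes.

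Among the targets, RD29A differed by 1.59 in number I and 1.81 in number II, KIN1/KIN2 by 1.02 and 0.93, and COR47 by 0.83 and 0.67. COR15A, LTI30 and COR15B differed by 0.19, 0.04 and 0.00 in number I and by 0.34, 0.45 and 0.46 in number II. The change in the genotype difference between the numbers, II minus I, was between -0.46 for CBF2 and 0.46 for COR15B. With 1 array of each kind it has no replicate error and was not tested. A mean difference of at least 2-fold was found for 4 of 9 members, the 3 CBF genes and RD29A, against 0.628% of all probe sets that were at least 2-fold higher in php.

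**Figure D3:**
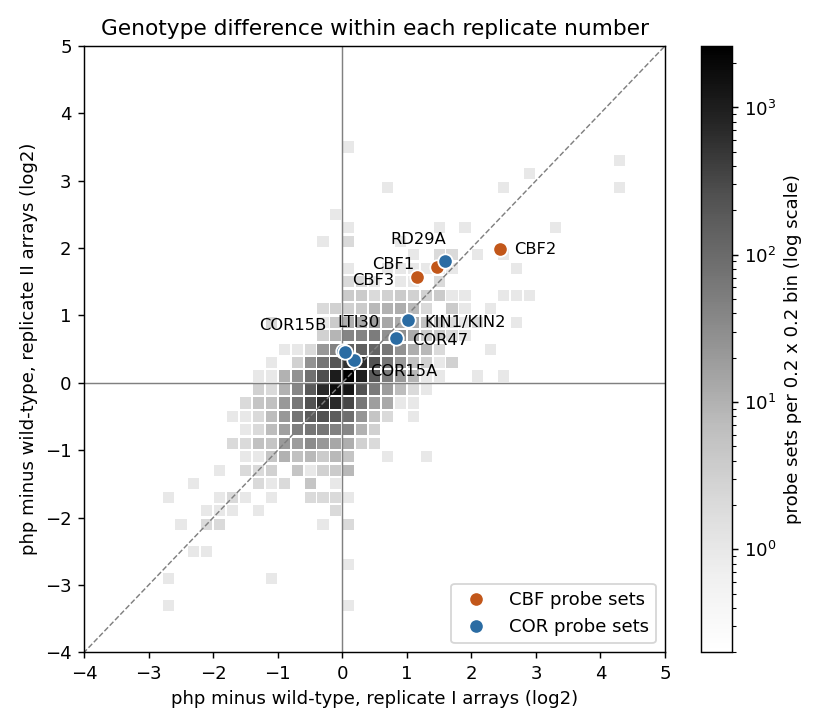
Log2 difference of php minus wild-type on the replicate I arrays (horizontal axis) and on the replicate II arrays (vertical axis), with the CBF members in orange, the COR members in blue and all 15922 probe sets tested as grey bins shaded by their number on a log scale. The CBF genes and RD29A lie near the dashed line of equal difference at 1.16 to 2.44, and all 9 members lie in the part of the plot where php was higher in both numbers.

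Between the replicate numbers, CBF1 and CBF2 showed the widest gaps of the members, in both genotypes. CBF1 was 2.82 higher on array II than on array I in php and 2.57 higher in wild-type, on the log2 scale, or 7.06-fold and 5.95-fold. CBF2 was 2.13 higher in php and 2.58 higher in wild-type, or 4.37-fold and 5.99-fold. In a fit with genotype as a term, the difference of replicate II minus replicate I was 2.70 for CBF1 (interval 2.33 to 3.07, limma adjusted p = 0.177) and 2.36 for CBF2 (interval 1.82 to 2.89, limma adjusted p = 0.262). CBF3 differed by 0.93 in php and 0.52 in wild-type, with a fitted difference of 0.73 (limma adjusted p = 0.612).

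LTI30 was the target that varied most with the number, 1.39 higher on array II in php and 0.98 higher in wild-type, with a fitted difference of 1.18 or 2.27-fold (interval 0.71 to 1.65, limma adjusted p = 0.478). The other 5 targets had fitted differences of 0.11 to 0.28, and COR15B was 0.45 higher on array II in php and -0.01 in wild-type. The replicate II array was the higher in both genotypes for 8 of 9 members, against 23.3% of all probe sets. A mean of at least 2-fold above replicate I was found for CBF1, CBF2 and LTI30, against 0.904% of all probe sets.

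No member passed the test between numbers, and 0% of all probe sets did, so the fit called 0 in all, with 1252 at an unadjusted p under 0.05. At an unadjusted p under 0.05 and higher in replicate II there were 6 members of 9, against 4.5% of all probe sets. These 6 were CBF1, CBF2, CBF3, COR15A, COR47 and LTI30. With each array centred on its median, limma called 64 probe sets, among them CBF1 (adjusted p = 0.022) and CBF2 (adjusted p = 0.041). The genotype difference was larger than the replicate difference in size for 5 of 9 members, CBF3, COR15B, COR47, RD29A and KIN1/KIN2, and for 10904 of the 15922 probe sets tested.

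**Figure D4:**
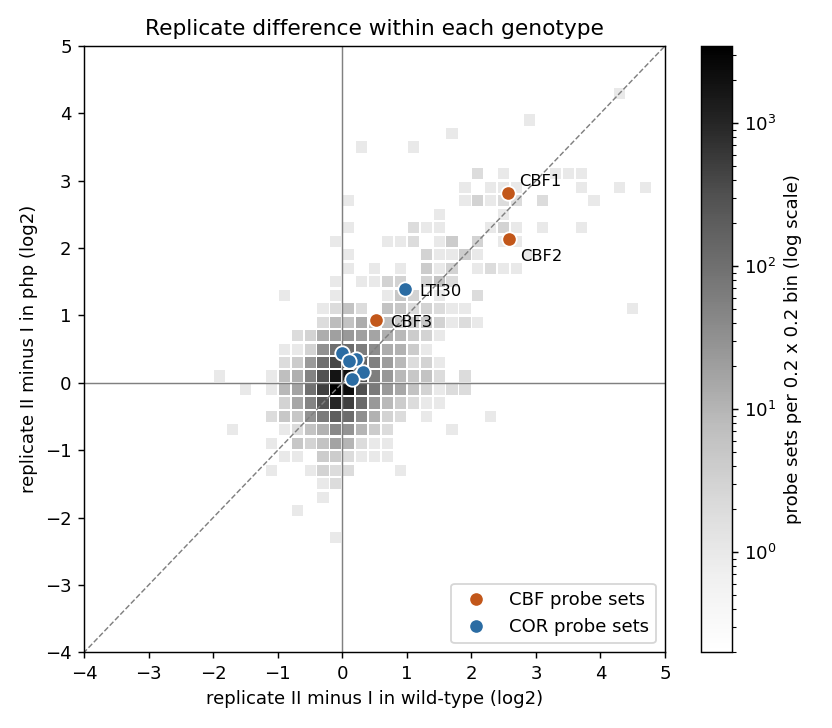
Log2 difference of replicate II minus replicate I in wild-type (horizontal axis) and in php (vertical axis), with the CBF members in orange, the COR members in blue and all 15922 probe sets tested as grey bins shaded by their number on a log scale. CBF1 and CBF2 lie at 2.13 to 2.82 on both axes, and CBF3 and LTI30 lie between them and the bulk. The other COR members lie at -0.01 to 0.31 in wild-type and at 0.06 to 0.45 in php.

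Other genes of the pathway were taken from 5 lists of 91 loci, covering CBF relatives, regulators upstream of CBF, transcription factors of the first cold wave, further cold-response genes, and abscisic acid and drought genes. Only 7 of these loci could be named on a tested probe set through the annotation used here, and 0 of them passed between genotypes in either direction. No CBF relative and no gene of the abscisic acid list was among the 7.

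COR27, which is induced by cold and peaks in the evening phase of the clock, had its arrays in the same order as CBF1 and CBF2. It was at 5.63 and 7.17 on php arrays I and II, against 4.51 and 6.09 on wild-type arrays I and II, with the genotypes overlapping and the replicate II arrays higher in both. Its log2 difference between genotypes was 1.09 (SE 0.79, limma adjusted p = 0.438). COR28, its close relative, was at 4.95 and 6.02 in php, against 4.13 and 4.93 in wild-type, without overlap, a difference of 0.95 (SE 0.48, limma adjusted p = 0.308). TIL, a temperature-induced lipocalin of the plasma membrane, differed by 0.02 (SE 0.07).

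STZ, a zinc finger repressor also called ZAT10 that is induced early by cold, touch and wounding, had the widest replicate gap of the listed genes. It was at 7.15 and 10.14 on php arrays I and II, against 5.66 and 9.32 on wild-type arrays I and II. The fitted replicate difference was 3.33, above 99.96% of all probe sets tested (limma adjusted p = 0.245), where CBF1 was above 99.88%, CBF2 above 99.76% and LTI30 above 99.27%.

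The upstream regulators that could be named had small differences in both comparisons. SIZ1, the SUMO ligase that stabilises ICE1, differed between genotypes by 0.16 and 0.25 on its 2 probe sets, EIN3, an ethylene-pathway factor that represses CBF genes, by 0.14, and the clock gene GI by 0.43. On all 4 probe sets both php arrays were above both wild-type arrays, as they were for 33.2% of all probe sets tested. The limma adjusted p was 0.112 for GI and 0.205 to 0.280 for the others. Their replicate differences were between -0.14 and 0.05.

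The patterns most like the mean CBF profile over the 4 arrays were sought among 8885 tested probe sets with 1 gene, by the root mean square distance of levels centred on their own mean. The closest were AT4G27652 at a distance of 0.27, AT2G41640 at 0.34, AT2G27080 at 0.35, COR27 at 0.37 and AT1G07135 at 0.44, in log2 units. CBF2, CBF1 and CBF3 were themselves at 0.35, 0.39 and 0.63 from their mean. AT4G27652 was at 6.28 and 8.94 on php arrays I and II, against 4.87 and 7.04 on wild-type arrays I and II. Over all probe sets tested, 42 were closer to the CBF profile than CBF3 was, CBF1 and CBF2 included.

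For the mean COR profile the closest were AT4G30650 at 0.05, AT1G27200 and AT5G35735 at 0.07 each, AT1G53035 at 0.08 and AT2G44500 at 0.08. AT4G30650 was at 12.37 and 12.80 on php arrays I and II, against 11.85 and 12.13 on wild-type arrays I and II. The 6 targets were themselves at 0.11 for COR47 to 0.51 for RD29A from their mean, and 12876 of the 15922 probe sets lay closer to it than RD29A did. The mean COR profile ran only from -0.49 to 0.57, against -1.81 to 1.84 for the CBF profile. The distance is not scaled, so probe sets that varied little also lie near the COR profile.

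The 4 arrays had medians of 5.58 to 5.63, and arrays carry no read depth, so their number limits the precision. The leaf genes LHCB4.1, LHCB4.2 and LHCB4.3 were at 9.17 to 14.55 on every array and differed between genotypes by -0.09 to 0.07, and the root hair gene EXPA7 and the flower genes AMS, SPL and INO were at 1.90 to 2.29, near the floor. PYK10, a root marker that seedling shoots also express, differed by 0.47 (limma adjusted p = 0.115). Control probe sets moved with genotype too. The 25S and 5S rRNA controls were 1.18 and 1.09 higher in php, and the 18 probe sets of the hybridisation spike-ins were 0.22 to 0.51 higher, while the 24 of the poly(A) spike-ins were at a median of -0.08. The part of tissue, RNA make-up or array signal in the members' differences was not tested.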

How the data were processed

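Transcripts were measured on 4 Affymetrix ATH1 arrays, 2 of php and 2 of wild-type aerial tissue. The deposited values are log2 levels that the authors obtained with GCRMA, which adjusts background and normalizes, per the series' design text in the labels. MAS5 is also named in the submitters' processing notes, with no role, and no source used here gives a version. No further normalization was applied. The 64 control probe sets and the 6824 dimmest, which are the lowest 30% by mean level (up to 2.64), were left out, and all 9 members stayed in among the 15922 tested. Differences were fitted across the whole table in limma 3.58.1 (R 4.3.3; lmFit, then eBayes with a variance trend), two-sided, with Benjamini-Hochberg adjustment over all 15922. The genotype fit had 2 residual and 1.98 prior degrees of freedom, and the replicate fit, with genotype as a term, 1 and 1.77. The smallest two-sided p of an exact permutation test at 2 arrays a genotype is 0.333, so each p rests on the model. The fits were tested on simulated data with known changes. The genotype fit called 61.2% of 2-fold and 98.5% of 8-fold changes, with 9 false calls. The replicate fit called 14.9% and 92.4%, with 0 false calls. The simulated arrays were independent and, in the genotype simulation, shared no replicate difference, unlike these data.

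Gene names came from the platform annotation, in which 13513 probe sets have 1 gene, 503 have several and 8730 that are not controls are not listed, and 13436 had a locus in RefSeq (TAIR10.1). The genes named were the 9 members, every listed pathway or tissue gene with a probe set of its own, and the 5 closest patterns to each group's mean. The members and lists were chosen with earlier results of these data known. Alternatives were other filters on dim probe sets, no variance trend, quantile normalization, median centring, a replicate block, no genotype term, each genotype alone, and leaving out each array. Plots were made in Python 3.11.15 (matplotlib 3.10.9).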

Additional observations from a re-analysis of the deposited data

Results flagged for a closer look

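The 25S and 5S rRNA control probe sets, which entered no comparison of genes, carried a signal that was 1.18 and 1.09 higher in php on the log2 scale. They were at 6.30 and 5.05 on php array I, and at 6.97 and 5.59 on php array II, against 5.40 and 4.38 on wild-type array I, and 5.50 and 4.09 on wild-type array II. Their relation to the members' differences was not tested.

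The difference of COR15B between the replicate numbers had a positive sign in php and a negative one in wild-type, where it was close to 0. It was 0.45 higher on array II than on array I in php and -0.01 in wild-type, so that the gap between them was 0.46 on the log2 scale. This rests on 1 array of each kind, and the difference was not tested.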

How the results depend on the processing

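Between genotypes limma called 5 probe sets, and 21 with the lowest 50% left out, 9 with median centring, 0 without the filter on dim probe sets (8020 at an unadjusted p under 0.05), 0 with the replicate block (4311 unadjusted) and 0 with any 1 array left out (1913 to 4020 unadjusted). Between replicate numbers it called 0, and 10 with the lowest 50% left out and 64 with median centring. Why these counts moved was not tested, beyond the smaller number of probe sets or arrays. Over 89 values of the members between genotypes, the direction changed for LTI30 alone, to -0.45 with php replicate II left out and to -0.24 with wild-type replicate I left out, within -0.45 to 0.94 over single arrays left out. Over 71 values between replicate numbers it changed once, for COR15B at -0.013 in wild-type alone. CBF1 was not tested with the lowest 50% left out.

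The replicate numbers are shared only as a label. The II minus I differences of php and wild-type correlated at 0.52 across probe sets, and probe sets of 1 array are not independent. With the replicate block CBF1, CBF2, CBF3, COR47, RD29A and KIN1/KIN2 had a limma adjusted p of 0.137 each, and no member passed. Benjamini-Hochberg adjustment can give probe sets with unlike unadjusted p the same value, so this tie does not rank the members.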
